A study of Mus musculus with 3 samples.

Results

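The genes described here encode the translation initiation factors (eIFs) and elongation factors (eEFs) of the mouse, with the enzymes that modify elongation factors. A gene was a member when its symbol begins with Eif1 to Eif6 or with Eef, when it has at least 1 transcript annotated as protein coding, and when it is neither an eIF2alpha kinase gene (Eif2ak) nor a numbered pseudogene (a symbol with -ps). The rule found 65 genes among 21901 genes with a protein-coding transcript, and it used no measured value. The material was the cytosolic RNA of bone marrow-derived macrophages from C57BL/6J mice, sequenced as total RNA after removal of ribosomal RNA. All libraries belong to 1 group: the cells received 100 ng/ml Lipid A, the endotoxin part that activates Toll-like receptor 4, for 12 h, were washed and left for 12 h, and received 100 ng/ml again for 25 min. The 3 libraries are biological replicates 1 to 3, called libraries 1 to 3 below. They come from separate biosamples with the same donor entry, and each began with 1 µg of RNA. Sex and age were not collected, per the labels. No untreated, singly stimulated or nuclear sample was analysed here, so no value below is an effect of Lipid A. With 1 group, an SD shows only how far these 3 samples lay apart, technical variation included, and no test between conditions can be made.

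Initiation begins when eIF2, loaded with GTP and the initiator tRNA, joins the small ribosomal subunit together with eIF1, eIF1A, eIF3 and eIF5. The cap-binding complex eIF4F, made of eIF4E, the scaffold eIF4G and the RNA helicase eIF4A, brings that subunit to the 5′ end of an mRNA, and scanning ends at a start codon. Elongation then cycles between eEF1A, which delivers charged tRNAs, and eEF2, which moves the ribosome by one codon, while eIF5A keeps ribosomes moving through difficult stretches. In macrophages these steps are known as control points of the endotoxin response, through kinases that act on eIF2, on eIF4E and its binding proteins, and on eEF2. RNA levels say nothing of those phosphorylations.

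Of the 65 genes, 61 reached at least 1 TPM in all libraries (TPM is a level corrected for transcript length and scaled to the same total in each library), against 42.1% of 22015 nuclear protein-coding genes. The other 4 members, Eef1a2, Eif4e1b, Eef1akmt3 and Eif2s3y, had 0 expected counts in every library. The read-based tables also gave Eef1a2 no reads, but gave Eif4e1b 0.666, 0.0685 and 0.0284 TPM, and Eef1akmt3 and Eif2s3y under 0.05 TPM in each library. Of the detected members, 9 lay within the top 10% of detected protein-coding genes by mean TPM, a share that is 9.99% over all such genes. They were Eef1a1, Eif1, Eef2, Eif4a1, Eif4g2, Eif5a, Eef1b2, Eef1g and Eif3h. By mean TPM, 6 members reached at least 100, 34 lay between 10 and 100, and 21 between 1 and 10. The median over all 65 members was 21.1, 26.6 and 23.6 TPM in libraries 1, 2 and 3, with a mean of 23.8 ± 2.78 TPM (SD, n = 3). The corresponding median of 76 cytosolic ribosomal protein genes was 194 ± 8.62 TPM (SD, n = 3). Together the factors held 1.07%, 1.15% and 0.988% of the TPM of nuclear protein-coding genes, and 28.6%, 35.9% and 32.0% of the factor TPM was Eef1a1 alone.

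Total expected counts were 55517261, 21311556 and 45635014 in libraries 1, 2 and 3, of which 86.3% to 91.8% fell in nuclear protein-coding genes. Of all TPM, these genes held 29.6%, 40.4% and 34.8%, so deposited TPM rests on a different protein-coding share in each library. A count of 0 allows up to 3 counts, or 0.0540, 0.141 and 0.0657 counts per 1000000 counts (CPM) of a library, for counting error only, since the tables carry no molecular identifiers. All 5 macrophage markers examined (Lyz2, Cd68, Adgre1, Csf1r, Itgam) were detected, and their median was 758 ± 153 TPM (SD, n = 3). Of the 15 markers of T cells, B cells, neutrophils, erythroid cells and stromal cells, none reached 1 TPM in all libraries, and Cd3g, Ly6g and Hba-a1 had 0 counts. The highest value of any of them was 0.22 TPM (Alas2, library 1). Nuclear RNA differed between the libraries: the 4 nuclear transcripts listed for this purpose, Malat1 among them, summed to 10149, 3738 and 1622 protein-coding CPM, that is, counts per 1000000 counts of nuclear protein-coding genes. Less RNA per cell and fewer cells cannot be told apart in bulk RNA.

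**Figure D1:**
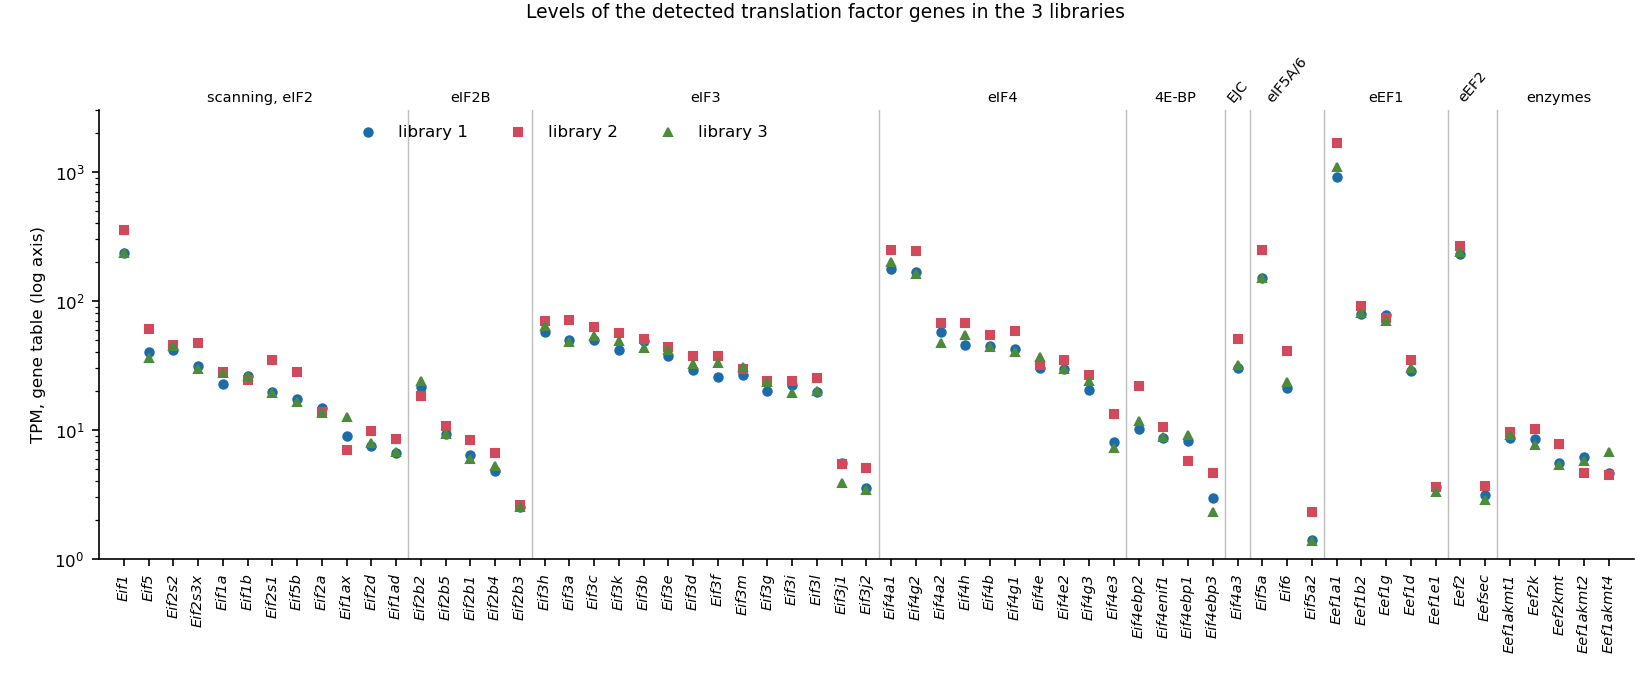
TPM of the 61 detected factor genes in the gene tables (log axis), grouped by role, with 1 symbol per library. Eef1a1 stands at the top at 908 to 1672 TPM, and most genes lie between 10 and 100 TPM; library 2 (squares) is the highest for 49 genes.

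Elongation factor genes spanned a wide range of levels. Eef1a1 (identifier ENSMUSG00000037742.14; eEF1A1, the GTPase that carries aminoacyl-tRNA to the ribosome; chromosome 9, 78478449 to 78489151, minus strand, mm10) was at 908, 1672 and 1099 TPM in libraries 1, 2 and 3. It ranked 21 among detected nuclear protein-coding genes. Library 2 was far above the others in TPM, yet the share of counts was nearly level, at 2648, 2826 and 2752 protein-coding CPM, a highest-to-lowest ratio of 1.07. A short transcript took a larger part of the TPM of Eef1a1 in library 2, where nuclear protein-coding genes also held their largest part of all TPM. Rescaled to those genes, Eef1a1 was at 3063, 4137 and 3161 TPM. Eef1a1-204, a processed transcript of 505 bases, was assigned 2.86, 417 and 15.1 TPM, while the main coding transcript Eef1a1-201 was assigned 883, 1243 and 1072 TPM. All noncoding transcripts of Eef1a1 together held 25.5% of its TPM but 5.80% of its counts in library 2. Eef2 (ENSMUSG00000034994.10, the translocase; chromosome 10, 81176631 to 81182498, plus strand) was at 229, 265 and 239 TPM and its highest and lowest protein-coding CPM differed 1.19-fold.

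Eef1a2, the paralog used in adult muscle and neurons, had no count in either quantification. With at most 3 counts allowed per library, Eef1a1 had at least 18438-fold more counts than Eef1a2 in the shallowest comparison, that of library 2. The coding sequences of the pair are 79.9% identical. Their first 60 coding bases are shown because this split rests on such differences. Capitals mark the 11 bases that differ (Eef1a1 at chr9:78480595-78480654, minus strand; Eef1a2 at chr2:181155347-181155406, minus strand; GENCODE M21 on mm10).
Eef1a1: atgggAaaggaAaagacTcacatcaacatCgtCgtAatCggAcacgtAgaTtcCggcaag
Eef1a2: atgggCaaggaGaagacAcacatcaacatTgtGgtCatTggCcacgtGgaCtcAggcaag

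The exchange factor that reloads eEF1A with GTP has 3 genes. Eef1b2 (the nucleotide exchange subunit) was at 79.2, 90.8 and 80.0 TPM, Eef1g (the structural subunit) at 77.4, 74.3 and 69.3 TPM, and Eef1d (a further exchange subunit) at 28.7, 34.8 and 30.3 TPM. By gene TPM, Eef1b2 was the highest and Eef1d the lowest of them in every library. Counting only transcripts annotated as protein coding, Eef1b2 was at 38.32, 44.45 and 46.35 TPM. That was below Eef1g, at 68.5, 72.36 and 60.34 TPM, in each library. Eef1e1, which belongs to the tRNA synthetase complex, was at 3.51 ± 0.170 TPM (SD, n = 3). Eefsec, which delivers selenocysteine, was at 3.23 ± 0.407 TPM (SD, n = 3), and Eef2 exceeded it 72.1-fold to 83.2-fold.

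Enzymes that modify elongation factors were low and close together. Among the 5 detected genes the means ran from 5.27 TPM for Eef1akmt4 to 9.14 TPM for Eef1akmt1, both lysine methyltransferases of eEF1A. Eef2k, the kinase that inhibits eEF2, was at 8.47, 10.2 and 7.64 TPM. Eef2kmt, which methylates eEF2, was at 6.23 ± 1.32 TPM, and Eef1akmt2 at 5.53 ± 0.790 TPM (SD, n = 3). Eef1akmt3 had no expected count.

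Eif5a (eIF5A; chromosome 11, 69916714 to 69921958, minus strand) was at 151, 248 and 151 TPM. Its paralog Eif5a2 was the lowest detected member, at 1.39, 2.33 and 1.37 TPM. Both genes were highest in library 2. In the gene tables their ratio barely moved: 6.66, 6.67 and 6.68 on the log2(TPM + 0.1) scale, a mean of 6.67 ± 0.009 (SD, n = 3) or 102-fold. It was 6.51 ± 0.15 in read-based TPM and 6.07 ± 0.13 with an offset of 1. Expected counts, not corrected for length, gave 4.62 ± 0.05 (SD, n = 3). eIF5A works only after one lysine has been turned into hypusine, and that lysine is codon 50 in both coding sequences. The 20 codons around it are shown with the lysine codon in capitals; the coding sequences are 72.7% identical overall. Each stretch joins 2 exons (Eif5a within chr11:69918007-69919195, minus strand; Eif5a2 within chr3:28782172-28782742, plus strand).
Eif5a: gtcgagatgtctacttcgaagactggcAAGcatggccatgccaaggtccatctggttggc
Eif5a2: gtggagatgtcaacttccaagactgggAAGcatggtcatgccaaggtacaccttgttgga

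The hypusine enzymes were expressed far below their substrate: Dhps was at 13.6 ± 2.08 TPM and Dohh, the next step, at 9.00 ± 1.30 TPM (SD, n = 3). All 9 genes listed for hypusine and for diphthamide, the modification of eEF2, were detected. Their median was 3.68 ± 0.813 TPM (SD, n = 3). The highest of the diphthamide genes was Dph3, at 10.2 ± 2.05 TPM. Eif6, which keeps the large ribosomal subunit from joining too early, was at 21.1, 41.1 and 23.6 TPM.

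Among the scanning factors, Eif1 (start codon fidelity; chromosome 11, 100319885 to 100322096, plus strand) was second among all members by mean gene TPM, at 236, 352 and 236 TPM. Its transcripts annotated as protein coding averaged 133 TPM, below those of Eef2 (243), Eif4a1 (192), Eif4g2 (187) and Eif5a (183). The paralog Eif1b was at 26.1, 24.5 and 26.3 TPM, and the pair, 81.1% identical in coding sequence, differed 10.5-fold in gene TPM. Eif5, the GTPase activator of eIF2, was at 40.4, 60.1 and 36.3 TPM. For eIF1A, the autosomal gene Eif1a was at 22.7, 28.1 and 27.4 TPM and the X-linked Eif1ax at 8.91, 6.93 and 12.6 TPM, so Eif1a was the higher in each library. Expected counts of the same pair, not corrected for length, kept that order. Eif1ad, an eIF1A-domain protein, was the lowest detected gene of the group at 7.29 ± 0.990 TPM (SD, n = 3).

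The 3 subunits of eIF2 lay close together. Eif2s2 (the beta subunit) was at 41.5, 45.3 and 45.0 TPM, Eif2s3x (gamma) at 31.4, 47.3 and 29.7 TPM, and Eif2s1 (alpha, the subunit phosphorylated under stress) at 19.5, 34.7 and 19.2 TPM. Their highest-to-lowest ratio was 2.13, 1.36 and 2.35 in the 3 libraries. Of the Eif2s1 TPM, 12.3%, 36.4% and 6.62% was in transcripts not annotated as protein coding. Its coding transcripts were at 17.1, 22.1 and 17.9 TPM, so the narrow ratio in library 2 rests partly on the others. Whether the cells carried a Y chromosome was not tested. Sex was not collected, and Xist, from the nuclear transcripts listed above, had 38474, 827 and 937 counts. The Y-linked copy of the gamma subunit, Eif2s3y, had 0 expected counts, so in the gene tables Eif2s3x had at least 1444-fold more counts in every library. The first 60 coding bases of the X and Y copies are shown because the call depends on telling them apart: 13 bases, in capitals, differ there, and the whole coding sequences are 86.3% identical (chrX:94212574-94212633, minus strand; chrY:1010617-1010676, plus strand).
Eif2s3x: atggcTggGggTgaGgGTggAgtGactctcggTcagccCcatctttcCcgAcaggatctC
Eif2s3y: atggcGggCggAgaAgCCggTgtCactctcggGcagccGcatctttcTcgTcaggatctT

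The exchange factor eIF2B, which recharges eIF2 and is the target of the integrated stress response, was lower than its substrate. Its subunit genes had a median of 6.89 ± 1.30 TPM, against 35.5 ± 8.55 TPM (SD, n = 3) for the eIF2 subunits. Eif2b2 was at 21.4, 18.2 and 24.1 TPM, Eif2b5, the catalytic subunit, at 9.36, 10.7 and 9.30 TPM, Eif2b1 at 6.36, 8.37 and 5.94 TPM, Eif2b4 at 4.76, 6.62 and 5.29 TPM, and Eif2b3 at 2.52, 2.63 and 2.51 TPM. This order of gene TPM was the same in each library. In transcripts annotated as protein coding, Eif2b2 was at 9.49, 14.1 and 10.9 TPM, against 9.37, 10.7 and 9.31 TPM for Eif2b5. Expected counts, not corrected for length, were lower for Eif2b2 than for Eif2b5 in each library. All 6 genes listed for the eIF2alpha kinases and phosphatase subunits were detected, led by Ppp1r15a, the inducible phosphatase subunit, at 70.2, 33.0 and 72.9 TPM and Eif2ak2, the double-stranded RNA sensor PKR, at 39.2, 50.9 and 40.9 TPM. Ppp1r15a was lowest in library 2, where most factor genes were highest in TPM.

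The eIF3 complex, the large scaffold that recruits the small subunit to mRNA, had all 14 genes detected. Without the loosely bound j subunit, the 12 remaining genes ranged from 21.7 to 63.9 TPM, and within a library the highest exceeded the lowest 2.94-fold, 2.98-fold and 3.29-fold. Eif3h led with 57.8, 70.0 and 63.9 TPM, followed by Eif3a at 50.2, 70.8 and 47.8 TPM, Eif3c at 49.4, 62.3 and 53.3 TPM, Eif3k at 48.8 ± 7.54 TPM and Eif3b at 47.6 ± 3.72 TPM (SD, n = 3). These neighbours overlapped across libraries. The j subunit is encoded by Eif3j1 and Eif3j2, at 4.96 ± 0.947 and 4.01 ± 0.916 TPM (SD, n = 3). Their coding sequences are 99.2% identical, and the order is uncertain: the log2 ratio of Eif3j1 to Eif3j2 was 0.31 ± 0.27 in the gene tables and -1.11 ± 0.24 in the read-based tables (SD, n = 3).

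In the eIF4 group, the helicase gene Eif4a1 (ENSMUSG00000059796.16; chromosome 11, 69666936 to 69672423, minus strand) was at 178, 246 and 202 TPM. Eif4g2, whose product lacks the eIF4E-binding part of the scaffold, was at 166, 244 and 163 TPM. Its annotated coding sequence opens with GTG and not ATG. The full scaffold gene Eif4g1 was at 42.3, 58.6 and 40.2 TPM and Eif4g3 at 20.6, 26.6 and 24.1 TPM. The cap-binding gene Eif4e was at 30.0, 31.6 and 36.8 TPM and was not separated from Eif4e2, a cap-binding repressor, at 29.5, 34.6 and 29.7 TPM. Of the 3 eIF4F components, Eif4a1 thus exceeded the lowest 5.94-fold, 7.79-fold and 5.50-fold. The helicase cofactors Eif4h and Eif4b were at 56.0 ± 11.2 and 47.5 ± 5.83 TPM (SD, n = 3). Eif4e3 was the lowest detected gene of the group at 8.11, 13.3 and 7.29 TPM, and Eif4e1b, known from oocytes, had no expected count.

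The eIF4E-binding proteins hold eIF4E away from eIF4G until mTORC1 phosphorylates them. Eif4ebp2 was at 10.2, 21.9 and 11.7 TPM and Eif4ebp1 at 8.26, 5.74 and 9.11 TPM. Eif4ebp2 was the higher in each library, with the widest gap in library 2. Eif4enif1, which carries eIF4E into the nucleus, was at 9.38 ± 1.00 TPM, and Eif4ebp3 at 3.30 ± 1.18 TPM (SD, n = 3). Eif4ebp3 shares its sequence with a read-through gene, AC115631.1, so its split is uncertain. Of the mTORC1 list, 9 of 10 genes were detected, led by Rheb at 26.2 ± 5.25 TPM and Akt1s1 at 18.3 ± 3.97 TPM. All 12 other regulators of eIF4F were detected, with Pabpc1, the poly(A)-binding protein, at 290.0 ± 91.9 TPM, and Mknk2, a kinase of eIF4E, at 42.1 ± 13.6 TPM (SD, n = 3).

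Genes of neighbouring pathways were examined as lists. Of 9 termination and recycling genes 7 were detected, led by Etf1, the release factor eRF1, at 33.9 ± 4.17 TPM and Denr at 25.8 ± 3.51 TPM. All 9 mitochondrial translation factors were detected, with Tufm at 13.8 ± 1.17 TPM and Gfm1 at 11.5 ± 4.18 TPM, and all 5 genes of the selenocysteine pathway, led by Sephs2 at 15.1 ± 1.87 TPM and Pstk at 4.58 ± 1.60 TPM (SD, n = 3).

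Levels were unequal by gene TPM in most of the 13 pairs examined. Eif4b and Eif4h, counted with the paralog pairs as helicase cofactors, were only 27.6% identical in coding sequence. The first-named gene was the higher in all libraries in 9 pairs and the second in 3, and Eif4e and Eif4e2 changed order between libraries. By gene TPM, Eef1b2 exceeded Eef1d by 1.41 ± 0.041 on the log2 scale, and Eif4g1 exceeded Eif4g3 by 0.97 ± 0.21 (SD, n = 3). Eif4a1 exceeded Eif4a2 by 1.86 ± 0.22 and Eif4a3 by 2.50 ± 0.21. In transcripts annotated as protein coding, Eef1b2 averaged 43.0 and Eef1d 30.9 TPM, a narrower gap. Eif4a1 averaged 192 TPM in such transcripts, against 11.8 for Eif4a2 and 16.85 for Eif4a3, both wider gaps. Again by gene TPM, Eif1ax fell below Eif1a (-1.49 ± 0.46), Eif4ebp1 below Eif4ebp2 (-0.86 ± 0.92) and Eif4b below Eif4h (-0.23 ± 0.16). The last of these had the opposite sign in expected counts, which are not corrected for length (0.49 ± 0.17).

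**Figure D2:**
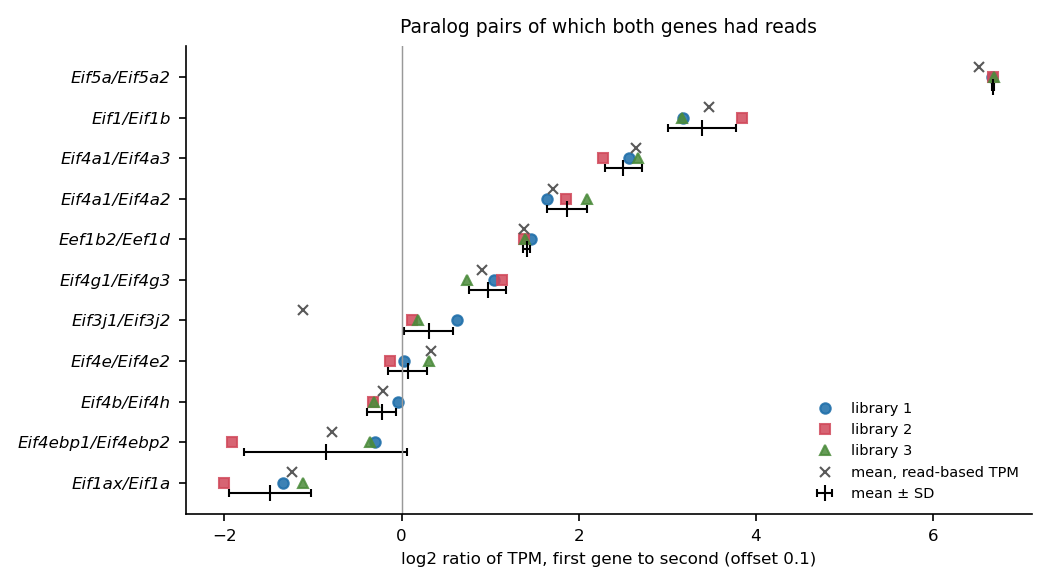
Log2 ratio of TPM (offset 0.1) of the first to the second gene in the 11 pairs of which both genes had reads, with 1 symbol per library, the mean and SD below each row of symbols, and crosses for the mean in the read-based tables. The Eif5a pair has the tightest ratio in the gene tables at 6.67 ± 0.009, and the cross of the Eif3j pair lies on the other side of 0.

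Eif4a2 (ENSMUSG00000022884.15; chromosome 16, 23107444 to 23114136, plus strand) was a special case among the helicase genes. Its gene-level TPM was 57.0, 67.9 and 47.3, but 82.0%, 76.0% and 81.3% of it was assigned to transcripts not annotated as protein coding. In expected counts that share was 78.0%, 80.0% and 85.2%, and in the read-based TPM 74.3%, 67.8% and 67.6%. Among members averaging 10 TPM or more, Eif4a2 was the 1 gene above 50% in all libraries, which 3.54% of 4600 protein-coding genes of that level were. Without library 2 there were 2 such members, and without library 3 there were 3. The leading transcript was Eif4a2-210, annotated as a target of nonsense-mediated decay, with 44.2 ± 4.77% of the TPM of the gene, followed by Eif4a2-204 of the same class with 22.3 ± 2.92% (SD, n = 3). Of 25 annotated transcripts, coding Eif4a2-225 came next, with 7.78 ± 1.11%.

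The annotation shows how those transcripts differ from the coding form. Eif4a2-210 lacks an exon of 140 bases (chromosome 16, 23109120 to 23109259), and Eif4a2-204 has an extra exon of 107 bases (23112351 to 23112457). Each change brings an early stop codon, shown in capitals with the coding bases before it. In Eif4a2-210 the stop lies 80 bases into the exon after the missing one (chr16:23110008-23110067), and in Eif4a2-204 it lies 7 bases into the extra exon (joined from 2 exons within chr16:23111847-23112360).
Eif4a2-210: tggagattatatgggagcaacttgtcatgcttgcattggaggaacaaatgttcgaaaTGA
Eif4a2-204: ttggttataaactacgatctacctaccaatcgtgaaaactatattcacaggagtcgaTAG

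The deposited tables hold no reads per exon or junction, so which exons were joined was not tested, and the share follows the model that divided reads among 25 overlapping transcripts. Eif4a2-202, annotated as coding, ends at the same stop as Eif4a2-204, because its last exon begins at the same base and runs on. The helicase motif that gives this family its name is present in all 3 eIF4A genes. The 20 codons around it are shown with the 4 codons of the DEAD motif in capitals (Eif4a1, chr11:69668689-69668748, minus strand; Eif4a2, chr16:23110239-23110298, plus strand; Eif4a3, 2 exons within chr11:119294026-119294376, minus strand). In Eif4a2-210 these codons lie after the early stop.
Eif4a1: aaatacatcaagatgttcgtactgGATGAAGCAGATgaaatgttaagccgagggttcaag
Eif4a2: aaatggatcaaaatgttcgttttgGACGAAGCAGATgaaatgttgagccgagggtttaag
Eif4a3: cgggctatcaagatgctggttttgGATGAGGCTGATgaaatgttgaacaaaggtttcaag

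Other members had large noncoding shares in TPM and smaller ones in counts. Eif4a3, the helicase of the exon junction complex, was at 30.0, 51.0 and 31.6 TPM, of which 53.0 ± 11.1% was noncoding by TPM and 18.4 ± 6.20% by counts (SD, n = 3). In protein-coding CPM it was nearly flat, at 42.5, 42.0 and 43.5. Eif1 had 44.7%, 61.0% and 44.1% of its TPM in noncoding transcripts but 13.5 ± 3.95% of its counts (SD, n = 3), nearly all in Eif1-202, a processed transcript of 383 bases. The coding transcript Eif1-201 was steady at 128, 137 and 131 TPM, while Eif1-202 was at 104, 215 and 102 TPM. Eef1b2 had 48.2 ± 5.36% of its TPM and 36.0 ± 6.46% of its counts in noncoding transcripts, led by Eef1b2-205, which is annotated as a decay target. Eif2b2 had 44.3 ± 18.8% of its TPM and 9.62 ± 5.20% of its counts there, mostly in a retained intron transcript of 338 bases (SD, n = 3).

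Such members were few. In 35 of the 61 detected members under 5% of TPM was noncoding in all libraries, against 45.9% of detected protein-coding genes. The median share over members was 2.87%, 0.485% and 1.10% in libraries 1, 2 and 3, and 4.76%, 1.27% and 1.63% over all protein-coding genes averaging 1 TPM or more. The transcript of highest mean TPM was noncoding in 4 members (Eif4a2, Eif4a3, Eif1 and Eef1b2), and in 5.28% of detected protein-coding genes.

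**Figure D3:**
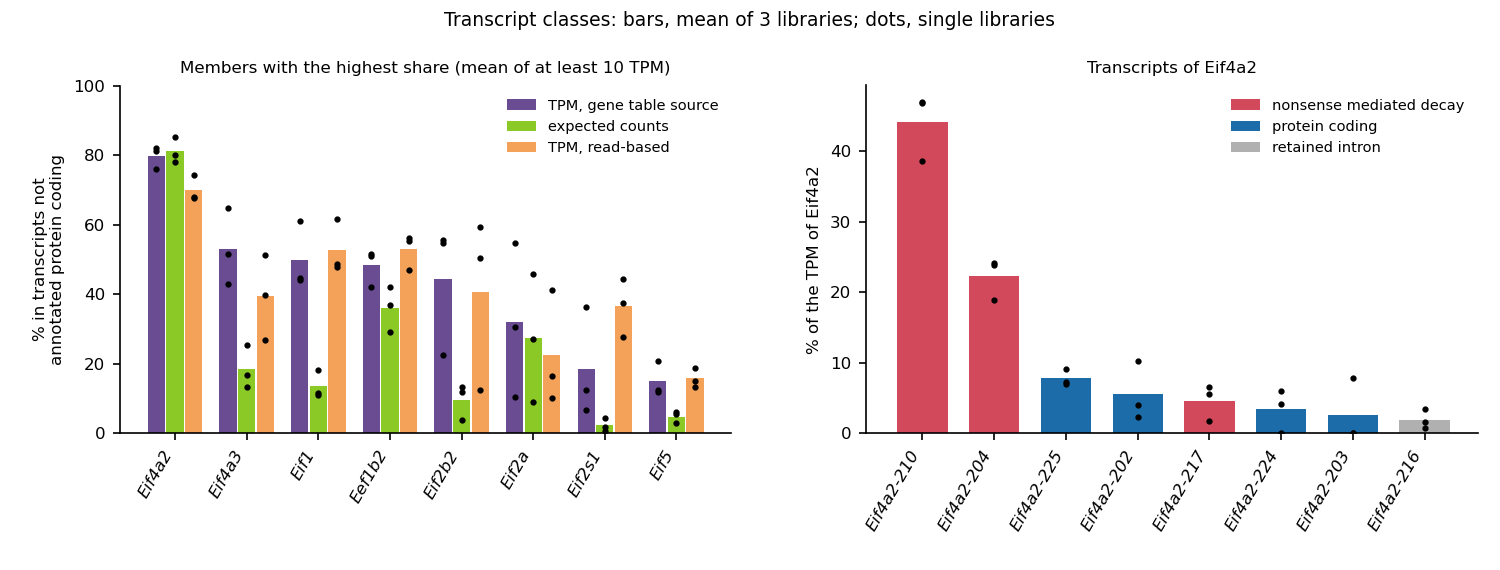
Left, share of each gene (%) assigned to transcripts not annotated protein coding, for the 8 members of highest share, by TPM, expected counts and read-based TPM. Right, share of Eif4a2 TPM (%) in its 8 leading transcripts, coloured by annotation class; bars are means of 3 libraries and dots single libraries. Eif4a2 is high by all measures, whereas Eif4a3, Eif1 and Eif2b2 are much lower in counts.

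Library-to-library differences were small once scaled to protein-coding counts, for the factors and for most detected protein-coding genes alike. In TPM, 49 of 61 members were highest in library 2, as were 75.2% of all detected protein-coding genes. In protein-coding CPM, 39 members were highest in library 1, against 47.5% of detected genes. A further 14 were highest in library 2, against 30.1%, and 8 in library 3. The highest and lowest library differed by under 1.5-fold in 54 members, against 82.5% of detected genes, and by over 2-fold in 0 members, against 3.31%. The median ratio of highest to lowest was 1.21 for members and 1.27 over 9596 expressed genes, which were not matched to the members by level. The median coefficient of biological variation estimated by edgeR was 0.135 over the 61 members, 0.164 over the ribosomal protein genes and 0.153 over 11073 protein-coding genes.

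Relative to the mean of the other libraries, the median member lay at 0.17, -0.03 and -0.08 (log2) in libraries 1, 2 and 3, and the median expressed gene at 0.09, -0.02 and -0.09. In library 1, 49 of 61 members were higher, against 67.2% of 9604 expressed genes; the nuclear RNA given above was also highest there, and its part in the difference was not tested. In library 2, 36 members were lower, against 53.2%, and in library 3, 41, against 64.4%. Among the roles, the lowest median in library 2 was -0.26, for the modifying enzymes, with 3 of 5 genes lower. The 3 genes of the eEF1 exchange factor were all lower in library 2, with a median of -0.30, and Eef1b2 was the lowest at -0.37. Eef1a1 was higher in library 2, at 0.07. Of the 12 eIF3 genes other than Eif3j1 and Eif3j2, 11 were lower there, with a median of -0.13. Eif5a, Eif5a2 and Eif6 were all higher in library 2, with a median of 0.33. Ribosomal protein genes were lower in that library in 74 of 76 cases, with a median of -0.50. On TMM-scaled counts the same medians were -0.28 for the exchange factor and -0.25 for the modifying enzymes. They were -0.12 for eIF3, with 9 of 12 genes lower, and 0.34 for eIF5A and eIF6. In TPM as deposited all of these factor medians were above 0 in library 2, where the median expressed gene was shifted by 0.33.

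**Figure D4:**
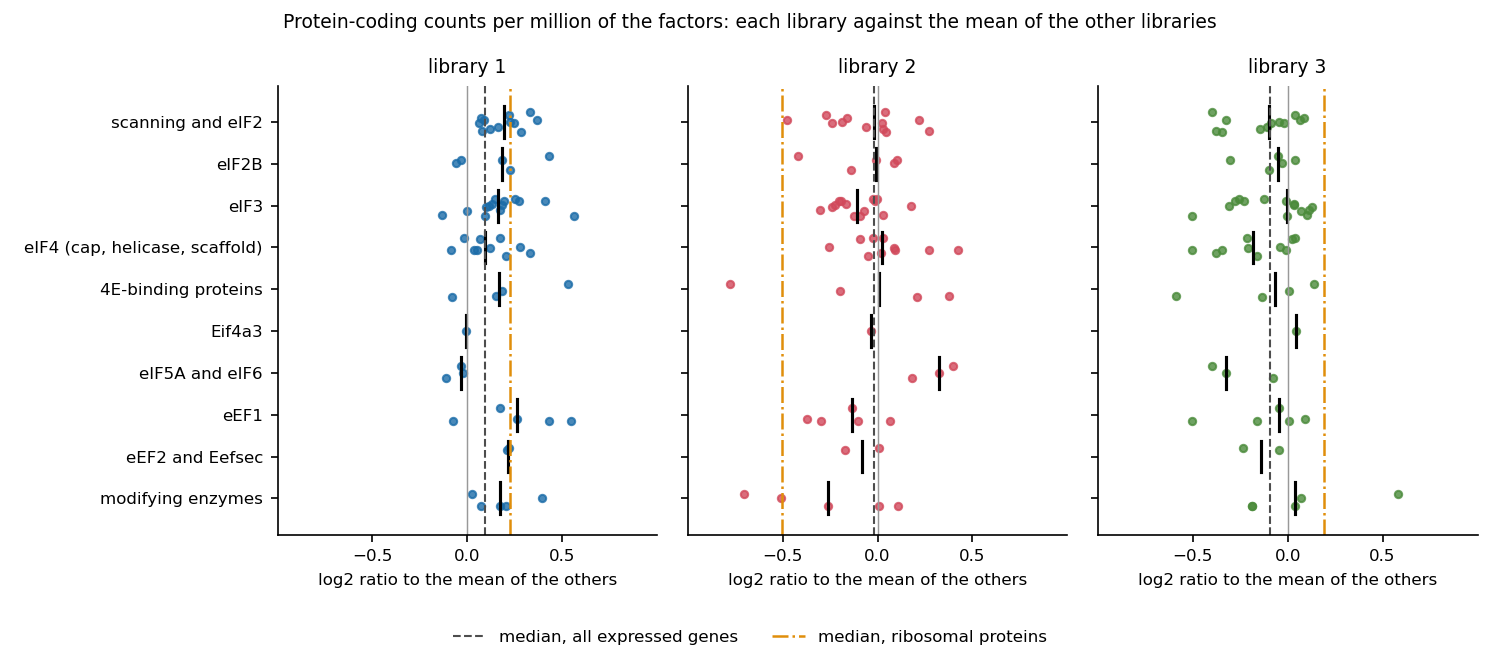
Log2 ratio of protein-coding CPM in a library to its mean over the remaining libraries (x axis), for the 61 detected members by role (rows), with black bars for the median of a role. Dashed lines give the median expressed gene and dash-dotted lines the median ribosomal protein gene, at -0.50 in library 2. In library 2 the role medians run from -0.26 for the modifying enzymes to 0.33 for eIF5A and eIF6. Those of eEF1 and eIF3 are -0.13 and -0.11.

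Among members averaging 5 TPM or more, those that varied most in protein-coding CPM were Eif4ebp1, Eef1akmt4, Eif4e3, Eef1akmt2 and Eif1b. Eif4ebp1 was at 24.1, 12.9 and 20.4, and Eef1akmt4 at 7.97, 5.52 and 10.1 CPM. Eif4e3 was at 35.1, 41.6 and 27.0, Eef1akmt2 at 7.91, 5.16 and 6.86, and Eif1b at 40.0, 26.9 and 35.0 CPM. Library 2 was the lowest in 4 of these genes and the highest for Eif4e3. Their highest-to-lowest ratios ran from 1.48 to 1.86.

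The 2 quantifications were compared after both were rescaled to protein-coding genes. Members were compared when their mean TPM as deposited, before rescaling, was at least 10 in either. Among these, the read-based value was lowest relative to the gene table for Eif4a3 (log2 difference -0.31), Eif4a1 (-0.16) and Eif3b (-0.15). It was highest for Eif4e (0.24), Eif2s1 (0.23) and Eif3c (0.19). Some members below that limit differed more, among them Eif3j1 (-0.60), Eif3j2 (0.89) and Eif1ax (0.34). Near-identical copies annotated as pseudogenes took few reads. At 95% identity over 50% of the coding sequence, 17 members had at least 1 such pseudogene, 39 in all. The largest mean share of counts assigned to them was 2.60%, for Eif4a1, with 1.92%, 3.21% and 2.68% in libraries 1, 2 and 3. For Eef1a1, with 7 such pseudogenes, the mean was 1.35%. Copies of other classes were not counted in these shares, among them Eif3j1 and Eif3j2 for each other and AC115631.1 for Eif4ebp3. With those, 22 members had a copy, 48 copies in all.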

How the data were processed

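Total RNA of the cytosolic fraction, depleted of ribosomal RNA, was measured in 3 libraries of 1 group. Per the file headers, the authors deposited gene and transcript tables with expected counts, TPM, lengths and TPM bounds (a signal range not used for results), and a second transcript table that also gives estimated counts and TPM. The deposited files that describe them name mm10 and GENCODE M21, and say that the first tables were made from a transcriptome alignment and the second from reads. No aligner, counter, version or strand setting is named (not given in the sources used here). Programs of this kind divide reads among overlapping transcripts by a model, so transcript levels, near-identical genes and overlapping genes are uncertain.

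Levels are deposited TPM. Library comparisons used expected counts per 1000000 counts of nuclear protein-coding genes (CPM) (offset 0.1 in log2). Read-based values were summed per gene. Biological variation was estimated with edgeR 4.0.16 (R 4.3.3) on expected counts rounded to whole numbers, with TMM, its expression filter and an intercept only. The tagwise values are moderated toward a trend over all genes, and the procedure was tested on simulated data. Copies of coding sequences were found with blastn 2.17.0, and sequences were read from GENCODE M21 transcripts. Alternatives were read-based tables, rescaled TPM, TMM, DESeq2 1.42.0, other offsets and filters, and leaving out each replicate.

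Members, lists and comparisons were chosen with earlier results of these data known. Named genes were Eef1a1, Eef2 and Eif4a1; in each role all detected genes of lists of up to 6 genes, otherwise the 5 of highest mean TPM and the lowest detected; members under 1 TPM; paralog pairs; the 5 with the largest range; the 3 that differed most between the quantifications, in either direction; the 5 with the largest noncoding share; and the 2 highest of each pathway list. Dph3, Dohh, Eif5b, Xist, AC115631.1 and single transcripts were named after their values were seen.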

Additional observations from a re-analysis of the deposited data

How the results depend on the processing

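No paired analysis was possible because the study has 1 group. The median level of the factors, 23.8 TPM, was 11.3 TPM in the read-based tables and 68.3 when TPM was rescaled to nuclear protein-coding genes; both rest on another total, and without 1 replicate it ran from 22.3 to 25.1 TPM. In TPM as deposited the median library ratio of members changed sign to -0.21 in library 1 and 0.28 in library 2. For library 3 it was 0.013 with TMM and 0.018 with DESeq2 size factors, against -0.08 on protein-coding counts. Of the pairs with 1 order in all libraries, Eif3j1/Eif3j2 changed sign in read-based TPM (-1.11) and Eif4b/Eif4h in expected counts (0.49). Eif4e/Eif4e2, whose order was mixed, went from 0.07 to -0.05 without replicate 3. The count of members over 50% noncoding rose from 1 to 2 in the read-based tables and without replicate 2, and to 3 without replicate 3. The member added in the read-based tables was Eif5b, with 54.7%, 65.5% and 53.8% noncoding in libraries 1, 2 and 3. In the gene table source its shares were 9.20%, 21.1% and 1.10%. Expected counts are not corrected for length, and leaving out a replicate leaves fewer libraries to pass; the cause of the Eif3j change was not tested. The count of detected members was 55 in the read-based tables and 51 at a limit of 5 TPM, and 61 without any 1 replicate. The median coefficient of variation of the members ran from 0.130 to 0.145 over all alternatives. Without replicate 2 it was 0.143, against 0.141 over the ribosomal protein genes, so the order of these 2 sets was not kept. Library 2 had the fewest counts, so the lowest members, such as Eif5a2 and Eif2b3, are least precise there.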
